A study of Rattus norvegicus with 2 samples.

Results

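The urea cycle of the liver was described here through 9 genes: Nags, Cps1, Otc, Ass1, Asl and Arg1 for the enzymes, Slc25a15 and Slc25a13 for mitochondrial carriers, and Gls2 for the liver-type glutaminase. They were found as non-control probes whose RefSeq transcript accession belongs to a listed gene, and 8 of the 9 had such a probe, out of 13831 named genes on the array. Each of the 8 had 1 probe and 1 spot per array. Slc25a13, which encodes citrin, the aspartate-glutamate carrier, had no probe that could be named in this way and is given no value. Liver RNA came from Sprague Dawley rats dosed intragastrically with senecionine at 35 mg/kg and from control rats dosed with sodium chloride. Senecionine is a pyrrolizidine alkaloid that damages the liver. Both groups were sampled 36 h after dosing. For each group, tissue of 3 animals was pooled and hybridised to 1 one-colour Agilent array, so there are no replicates, no test was possible and the spread between animals is unknown. The submitters' design text mentions 2 independent experiments and names the control and the 36 h exposure beside them, which was read here as the 2 arrays, and it does not settle whether either array combines repeats. The sex and age of the animals are not given in the sources used here.

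The urea cycle turns toxic ammonia into urea and, in full, runs in hepatocytes, above all in the periportal part of the lobule. Ammonia enters in the mitochondrion through carbamoyl phosphate, is passed on to ornithine there, and the resulting citrulline is handled in the cytosol until arginine is split into urea and ornithine. Liver glutaminase releases ammonia from glutamine upstream of the cycle, and cells around the central vein take up what escapes through glutamine synthetase.

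Markers of hepatocytes gave bright signals in both pools. The 10 core hepatocyte markers, from albumin (Alb) to retinol-binding protein (Rbp4), had processed signals between 13239 and 118638 intensity units on the senecionine array and between 28432 and 123397 on the control array. With spots of uneven brightness kept, after senecionine 5 of the 10 were lower by 2-fold or more and none was higher, with a median log2 ratio of -1.02. Over all genes measured in that way 17.9% were lower and 11.1% higher by that much. On spots without a flag for uneven brightness 4 of the 10 were measured, with 2 lower by 2-fold or more and a median of -0.85. Over all genes measured on such spots 17.7% were lower by that much. The share of non-control spots well above background was 64.1% on the senecionine array and 44.4% on the control array, and the 75th percentile of signal was 134 and 101 intensity units on these arrays. In whole tissue, fewer hepatocytes and less RNA per hepatocyte cannot be told apart.

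The stretches of 250 bases before the gene start are shown for Cps1, Otc and Ass1, which encode the mitochondrial entry enzymes and the first cytosolic enzyme, and for Asl, the next cytosolic enzyme, whose signal differed least. They are RefSeq sequences of build GRCr8, 5′ to 3′ on the strand of the gene, and capitals mark any match to the 7 motifs searched. The Cps1 stretch lies at chr9:76063613-76063862 on the plus strand, that of Otc at chrX:15202474-15202723 on the minus strand, that of Ass1 at chr3:35149480-35149729 on the plus strand and that of Asl at chr12:32295658-32295907 on the plus strand.
Cps1: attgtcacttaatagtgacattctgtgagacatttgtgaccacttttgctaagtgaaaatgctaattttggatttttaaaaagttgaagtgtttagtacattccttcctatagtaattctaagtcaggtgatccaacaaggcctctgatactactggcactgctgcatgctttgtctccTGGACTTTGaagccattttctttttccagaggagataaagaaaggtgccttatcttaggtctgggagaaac
Otc: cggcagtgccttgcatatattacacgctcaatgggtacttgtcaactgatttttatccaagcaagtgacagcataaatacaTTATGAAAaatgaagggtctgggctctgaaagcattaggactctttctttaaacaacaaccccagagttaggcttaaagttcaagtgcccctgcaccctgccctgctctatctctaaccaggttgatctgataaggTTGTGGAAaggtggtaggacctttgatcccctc
Ass1: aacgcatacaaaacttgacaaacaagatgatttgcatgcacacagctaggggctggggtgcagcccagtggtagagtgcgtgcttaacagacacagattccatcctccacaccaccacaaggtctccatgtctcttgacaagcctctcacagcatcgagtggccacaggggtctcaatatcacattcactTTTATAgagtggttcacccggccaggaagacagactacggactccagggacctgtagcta
Asl: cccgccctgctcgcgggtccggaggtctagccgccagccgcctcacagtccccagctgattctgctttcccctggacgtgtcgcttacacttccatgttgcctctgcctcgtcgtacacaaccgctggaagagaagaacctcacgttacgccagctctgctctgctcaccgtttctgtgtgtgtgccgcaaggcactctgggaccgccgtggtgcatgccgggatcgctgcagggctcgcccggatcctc

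The motifs, searched on both strands, were the letters TATAAA (the TATA box), CCAAT (bound by NF-Y), CAAAGNNCA (an HNF4-type element), TTNNGNAA (a C/EBP-type element), TGACG (part of the cAMP response element), TGTTTAC (a forkhead element) and TGTTCT (part of the glucocorticoid response element). No matches of different motifs overlapped in these promoters. Cps1 held 1 match to CAAAGNNCA, at bases -71 to -63 from the gene start, a motif found in 5.22% of the 33465 promoters of the same length. Otc held 2 matches to TTNNGNAA, at -169 to -162 and at -33 to -26, a motif found in 37.2% of all promoters. Ass1 held 1 match to TATAAA on the opposite strand, at -60 to -55, a motif found in 12.9%. Asl held none, nor did Nags. The Slc25a15 promoter held 2 matches to TTNNGNAA and 1 to CCAAT (34.0% of all promoters), and 1 of the 2 Gls2 entries held 2 matches to TGACG (18.2%) and 1 to CCAAT. The promoter of Slc25a13 held 1 match to CCAAT, at -77 to -73, and 1 to TGACG, at -68 to -64. Of the other motifs, TGTTTAC (3.22% of all promoters) and TGTTCT (17.5%) were in no promoter of the group. Arg1 was not among the promoter entries used. GC content was 38% in Cps1 and 44.4% in Otc, against 51.2% in Ass1 and 64% in Asl. A match is a description of letters in this window.

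Several transcripts of the cycle were lower after senecionine, by unequal amounts. Of the 6 members measured on unflagged spots, 4 (Ass1, Otc, Nags and Cps1) were at least 2-fold lower, none was at least 2-fold higher, and Slc25a15 and Asl lay within 2-fold. With quantile normalization, cyclic loess or normexp background correction 3 of the 6 were at least 2-fold lower. A gene counted as measured where a probe passed the software's detection limit in both pools. Over all 7804 such genes, 17.7% were at least 2-fold lower and 11.2% at least 2-fold higher. The share lower was 16.5% with quantile normalization, 16.8% with cyclic loess and 9.75% with normexp. The median log2 ratio (senecionine minus control, after each array was scaled to its 75th percentile) was -1.40 over the 6 members and -0.14 over all measured genes. In the 25% of measured genes with the highest mean signal, 22.6% were at least 2-fold lower, 7.94% were at least 2-fold higher and the median was -0.27. The spots of Arg1 and Gls2 carried the software's flag for uneven brightness. With flagged spots kept, none of the 8 members was at least 2-fold higher and 6 were lower by that much, against 17.9% lower and 11.1% higher of 7992 genes, and the members' median was -1.51. Errors after the ± sign combine the spot errors that the Agilent software gave on each array. They are technical and hold nothing of the differences between animals or pools.

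**Figure D1:**
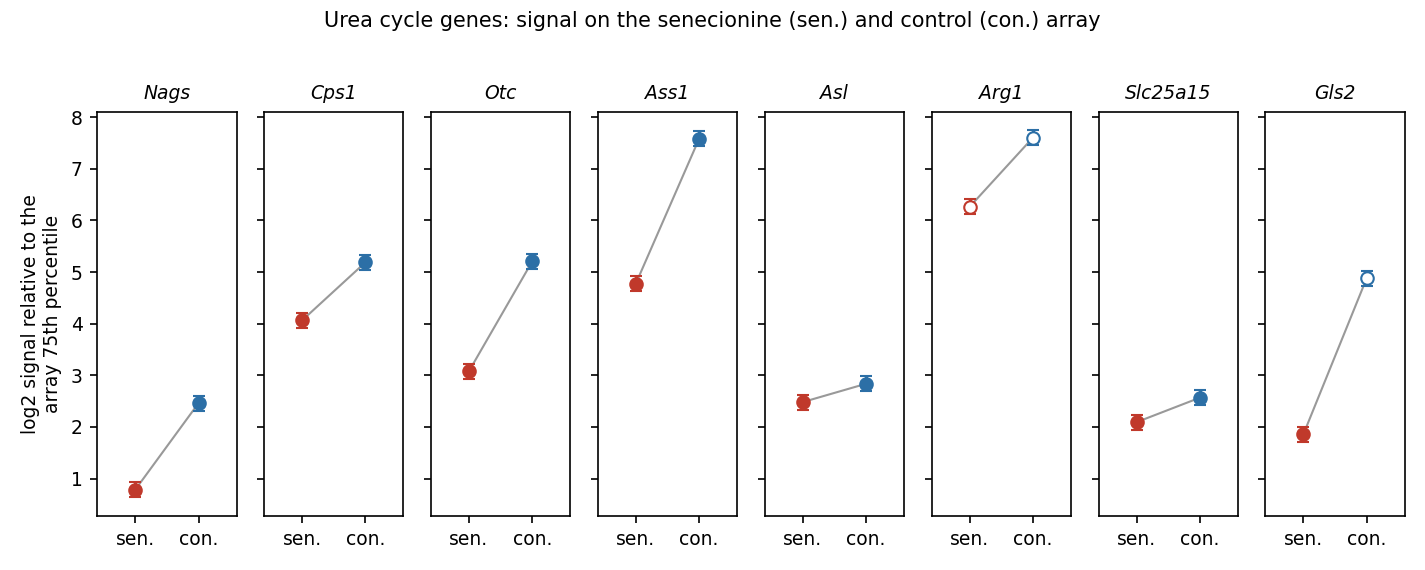
Signal of the 8 members with a probe, as log2 relative to the 75th percentile of each array, on the senecionine array (sen., red, left) and the control array (con., blue, right). Points are 1 spot each, bars are the spot error, and open points carry a flag for uneven brightness. Levels are to be compared within a gene only, and Ass1, Gls2 and Otc show the steepest differences while Asl and Slc25a15 are nearly level.

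The cycle starts in the mitochondrion. Nags makes N-acetylglutamate, the essential activator of carbamoyl phosphate synthetase. Its processed signal was 230 intensity units on the senecionine array and 555 on the control array, a log2 ratio of -1.68 ± 0.20 (3.20-fold lower). Cps1, carbamoyl phosphate synthetase 1, commits ammonia to the cycle and is among the most abundant mitochondrial proteins of hepatocytes. Its signal was 2236 units on the senecionine array and 3677 on the control array, a log2 ratio of -1.13 ± 0.20 (2.18-fold lower). The ratio was just past 2-fold and was within 2-fold with quantile normalization (-0.92), cyclic loess (-0.91) and normexp background correction (-0.96). The activator's transcript had the lower ratio of the pair, by 0.55 on the log2 scale with a combined spot error of 0.29.

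Otc, ornithine transcarbamylase, joins carbamoyl phosphate to ornithine in the mitochondrial matrix. Its signal was 1131 units on the senecionine array and 3728 on the control array, a log2 ratio of -2.13 ± 0.20 (4.37-fold lower). On the control array Cps1 and Otc had nearly the same signal, but that says nothing about their relative abundance, since different probes cannot be compared in level. The ratio of Cps1 was higher than that of Otc by 1.00 on the log2 scale, with a combined spot error of 0.29.

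Slc25a15 encodes the carrier that brings ornithine into the mitochondrion and lets citrulline out. Its signal was 571 units on the senecionine array and 598 on the control array, so the unscaled signals nearly coincided. After scaling, the log2 ratio was -0.47 ± 0.20 (1.39-fold lower), within 2-fold. The ratio of Otc was lower than that of its substrate carrier by 1.65 on the log2 scale, more than the combined spot error of 0.29.

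In the cytosol, Ass1, argininosuccinate synthetase, condenses citrulline with aspartate and is known to be under hormonal and nutritional control in liver. Its signal was 3666 units on the senecionine array and 19344 on the control array, a log2 ratio of -2.81 ± 0.20 (7.00-fold lower). The scaled signal on the senecionine array was 14.3% of that on the control array. Asl, argininosuccinate lyase, takes the product of Ass1 and releases arginine and fumarate. Its signal was 747 units on the senecionine array and 721 on the control array. The unscaled signals differed little and stood in the opposite order to the scaled ones, whose log2 ratio was -0.36 ± 0.20 (1.28-fold lower). The consecutive enzymes thus differed, with the ratio of Ass1 lower than that of Asl by 2.45 on the log2 scale against a combined spot error of 0.29.

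Arg1, liver arginase, cleaves arginine to urea and ornithine and closes the cycle. Its only probe was flagged for uneven brightness on both arrays, and its value therefore rests on flagged spots. Its signal was 10272 units on the senecionine array and 19615 on the control array, a log2 ratio of -1.34 ± 0.20 (2.53-fold lower). It was within 2-fold when flagged spots were kept together with quantile normalization (-0.89) or cyclic loess (-0.99). Such flags were frequent among bright spots. Of the 434 spots above the 99th percentile of signal, 19.1% were flagged on the senecionine array and 21.4% on the control array, while over all non-control spots the shares were 0.901% and 0.835%. Arg1 is also expressed by macrophages and, in humans, by neutrophils. Of 9 measured macrophage markers 3 were at least 2-fold higher, among them Gpnmb (log2 ratio 3.66) and Lgals3 (2.91), and 4 lower, among them the Kupffer cell lectin Clec4f (-3.17) and the mannose receptor Mrc1 (-2.90). Over all measured genes 11.2% were higher and 17.7% lower by that much. The summed scaled signal of the 9 macrophage markers, in multiples of the array's 75th percentile, was 255 on the senecionine array and 153 on the control array. Most of the first sum came from Lgals3, with 19507 units on the senecionine array and 1955 on the control array. Most of the second came from Clec4f, with 1352 and 9156 units on these arrays. Cd163 was not well above background on either. Trem2 of this list was detected in the senecionine pool alone. The neutrophil calgranulins S100a9 and S100a8 had log2 ratios of 6.53 and 6.28, both measured members of their list, and 5 more of its 8 probed genes were detected in the senecionine pool alone. The part of these cells in the Arg1 signal was not tested. Arg2, the mitochondrial arginase of extrahepatic tissues, was not well above background on either array.

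Gls2, the liver-type glutaminase of periportal hepatocytes, supplies ammonia for carbamoyl phosphate. Its signal was 485 units on the senecionine array and 2977 on the control array, where the spot was flagged for uneven brightness. The log2 ratio was -3.02 ± 0.20 (8.14-fold lower), the lowest of the 8 members at this scaling. With normexp correction and flagged spots kept it was -2.59, against -2.67 for Ass1.

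In order of their ratios, the members ran Gls2, Ass1, Otc, Nags, Arg1, Cps1, Slc25a15, Asl. Gls2 and Ass1 (0.22 apart), Arg1 and Cps1 (0.22) and Slc25a15 and Asl (0.12) differed by less than the combined spot error of 0.29. The steps from Ass1 to Otc (0.68) and from Cps1 to Slc25a15 (0.65) exceeded it more than those from Otc to Nags (0.45) and from Nags to Arg1 (0.34). With normexp correction Nags (-1.30) and Arg1 (-1.33, flagged spots kept) stood in the opposite order. Among the 7992 genes measured with flagged spots kept, 1.30% had a lower ratio than Gls2, 1.66% than Ass1, 3.75% than Otc, 7.01% than Nags, 11.3% than Arg1 and 15.0% than Cps1. The corresponding shares for Slc25a15 and Asl were 35.8% and 40.9%. With 2 arrays each gene has a single ratio, so no likeness of pattern between genes can be measured.

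**Figure D2:**
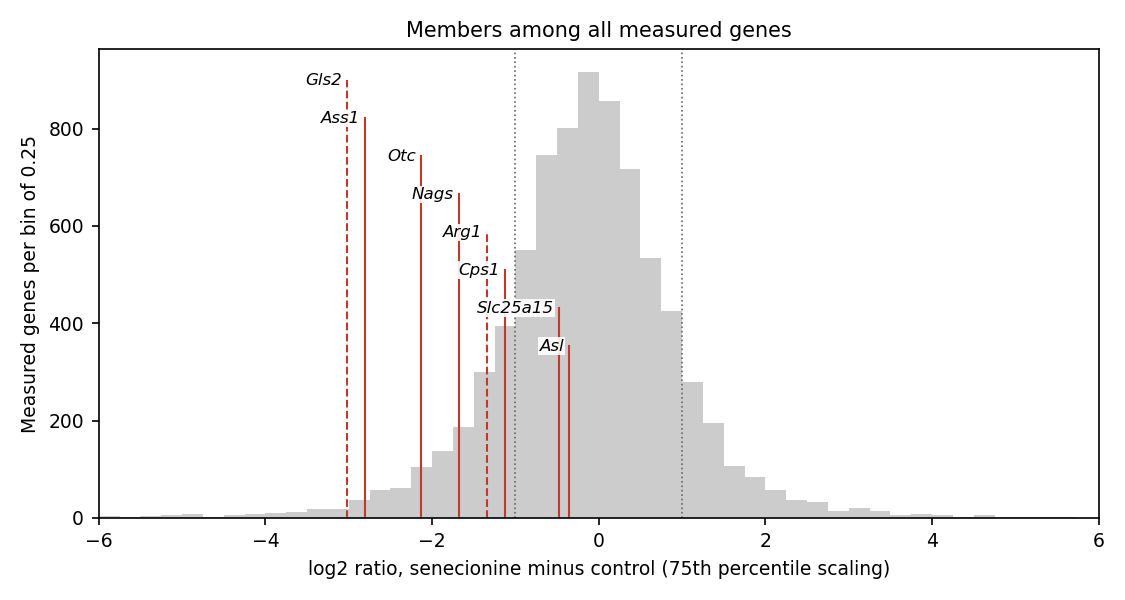
Distribution of log2 ratios (senecionine minus control) over the 7804 measured genes in bins of 0.25 (grey), with the 8 members as red lines whose heights carry no value. Dashed lines mark Arg1 and Gls2, whose spots were flagged, and dotted lines mark 2-fold. Asl and Slc25a15 lie in the body of the distribution and Gls2 and Ass1 in its lower tail.

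Set against albumin alone, whose log2 ratio was -1.14 ± 0.20, the members parted to both sides. With flagged spots kept, the ratios of the 10 hepatocyte markers, each on its brightest probe, ran from -1.51 (Apoh) to -0.34 (Fgb). The other Fgb probe stood on the higher side, at 0.58. The ratios of Arg1, Cps1, Slc25a15 and Asl lay within the range of the brightest probes, so for them the side depends on the marker chosen. Gls2 (by 1.89), Ass1 (by 1.67), Otc (by 0.99) and Nags (by 0.54) had ratios lower than that of albumin by more than the combined spot error of 0.29. Cps1 and Arg1 differed from it by less than that error. Slc25a15 and Asl had ratios higher than albumin's by 0.66 and 0.78.

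The authors' deposited table, a list of probes that differ at least 2-fold, holds Ass1, Otc and Nags with log2 differences of -2.34, -1.91 and -1.64 (senecionine minus control). It holds no probe of Cps1, Arg1, Gls2, Asl or Slc25a15. How it was scaled between arrays is unknown here, and 103 of the 652 probes flagged on either array are in it.

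**Figure D3:**
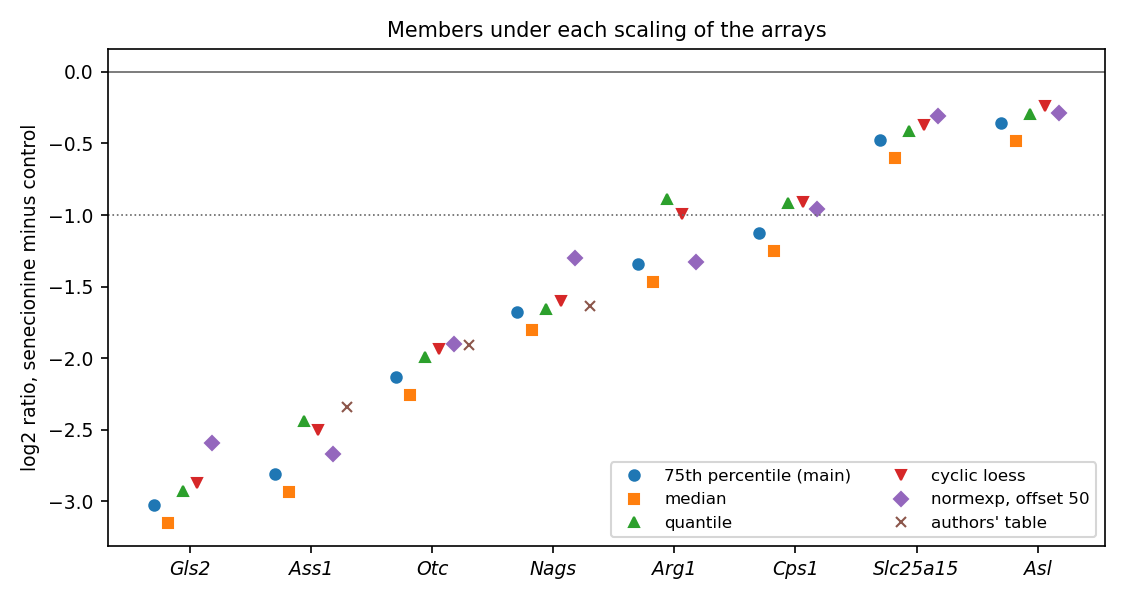
Log2 ratio of each member under 5 ways of scaling or background correction and, where listed, in the authors' deposited table (crosses). Arg1 and Gls2 are shown with flagged spots kept. The dotted line marks 2-fold, and only Cps1 and Arg1 lie on different sides of it under different scalings.

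Ammonia and glutamate handling outside the cycle was mostly on the same side. Of 18 measured genes of this list 9 were at least 2-fold lower and 1 higher, with a median log2 ratio of -1.01. Over all measured genes 17.7% were lower and 11.2% higher by that much. Car5a, the mitochondrial carbonic anhydrase that supplies bicarbonate to Cps1, had signals of 163 units on the senecionine array and 724 on the control array (log2 ratio -2.56 ± 0.21). The transaminases Gpt2 and Got2 had log2 ratios of -2.26 and -2.00. Got2 supplies the mitochondrial aspartate that citrin exports for Ass1. Sirt3, a mitochondrial deacetylase, had a ratio of -1.98. Glud1, glutamate dehydrogenase, which releases ammonia from glutamate, had a ratio of -0.88 on its brightest probe and -0.21 and -0.39 on its other probes, all within 2-fold. The glutamine transporter Slc38a2 was the 1 higher member, at 1.20.

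Glul, the glutamine synthetase of pericentral hepatocytes, did not share that side. Its probes gave 1262 and 804 units on the senecionine array and 610 and 563 on the control array. Their log2 ratios were 0.64 and 0.11, both within 2-fold. Rhbg, an ammonium transporter of the same pericentral cells, had a ratio of -0.10 ± 0.21. Other genes known from pericentral hepatocytes were at least 2-fold lower, among them the glutamate transporter Slc1a2 (log2 ratio -1.14) and Oat, ornithine aminotransferase (-2.53), both named after their values were seen.

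Brain also expresses Gls2. Among 7 measured neuron and glia markers none was at least 2-fold higher and 5 were at least 2-fold lower (median log2 ratio -2.52), led by Gap43 (-5.02), Mag (-4.05), Nefl (-2.95) and Slc1a3 (-2.52). Over all measured genes 11.2% were higher and 17.7% lower. Gap43, Mag and Nefl read 10.4, 13.3 and 12.7 units on the senecionine array, below its median spot signal of 23.2, so their ratios rest on dim spots. With normexp correction the list median was -1.16. Their summed scaled signal was 1.94 on the senecionine array and 9.80 on the control array, in multiples of the 75th percentile, and Stmn2 and S100b were not well above background on either. Detection was limited to the senecionine pool for 2 further markers of this list, Syt1 and Gfap, and to the control pool for 2 others. With detection on 1 array sufficing, 7 of 11 were lower and 1 higher. The added genes enter only through the array where they are high, so this change in the counts is built into the setting. Over all genes at that setting 14.7% were at least 2-fold lower. The part of neural RNA in the Gls2 value was not tested.

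Genes of ornithine, proline and arginine use, not all of them enzymes, split. Of 16 measured, 7 were at least 2-fold lower and 2 higher (median -0.52), against 17.7% and 11.2% of all measured genes. The proline oxidase family gene Prodh2 (log2 ratio -2.81), agmatinase (Agmat, -2.66), ornithine aminotransferase (Oat, -2.53, other probe -2.00) and the creatine-forming enzyme Gamt (-2.20) led the lower side. On the higher side were Odc1, ornithine decarboxylase, the entry to polyamines, at 1.97 (other probe 2.76) and the amino acid transporter subunit Slc3a2 at 1.27, these 2 named after their values were seen. Detection was limited to the senecionine array for 4 more, Nos2, Aldh18a1, Slc7a7 and Sms. Nos2, the inducible nitric oxide synthase that competes for arginine, had 107 units there and 4.80 on the control array. Set against the lowest detected signal on the control array, it was 11.4-fold higher. That is not a strict lower bound, since Slc38a5 of the ammonia list read 18.3 units on the control array without being detected. Over all named genes, 2616 were detected in the senecionine pool alone and 169 in the control pool alone.

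Other mitochondrial carriers were mostly within 2-fold. Of 16 measured, 5 were at least 2-fold lower and 1 higher (median -0.76), against 17.7% and 11.2% of all genes. The calcium-regulated carrier Slc25a25 had a log2 ratio of -2.52, the liver-enriched Slc25a47 one of -1.89 and the citrate carrier Slc25a1 one of -1.39. Slc25a4, an adenine nucleotide carrier, had 1.36 on its brightest probe but -0.43 on the other. Slc25a12, the paralog of citrin, had no probe that could be named.

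Among 16 measured genes known to regulate urea cycle transcription or to respond to the same hormones, 5 were at least 2-fold lower and 1 higher (median -0.30). The shares over all measured genes were 17.7% and 11.2%. The 5 were Cebpa (log2 ratio -1.72), Nr1h4 (-1.39), Hnf4a (-1.37, other probe -1.56), the glucagon receptor Gcgr (-1.28) and Tat (-1.01), a glucocorticoid-responsive transaminase. With quantile normalization or cyclic loess 3 of the 16 were lower, beside 16.5% and 16.8% of all measured genes, shares close to that count. Hnf4a had 118 units on the senecionine array and 230 on the control array. Cebpb, the relative of Cebpa known from the acute phase response, had a ratio of 0.79 and the glucocorticoid receptor Nr3c1 one of -0.41. Pck1, which answers to glucagon and glucocorticoids as urea cycle genes do, had a ratio of -0.20. The 1 higher member was Sp1 (1.25), whose other probes gave 0.08 and 0.14.

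Urea cycle enzymes are also expressed outside the liver, Cps1 and Otc in small intestine and Ass1 and Asl in kidney. Of 9 probed kidney markers 7 were not well above background on either array, Slc22a6 was detected in the senecionine pool alone, and the 1 measured on both, Aqp2, had a log2 ratio of -0.62. Of 3 measured small intestine markers Fabp2 had a ratio of 1.60, Apoa4, which rodent liver also makes, one of -1.48 and Anpep one of -0.66. The intestinal genes Alpi and Cdx2 were not well above background on either array. The summed scaled signals, in multiples of the 75th percentile, were 98.6 on the senecionine array and 247 on the control array for the 3 intestinal genes. Most of both sums came from Apoa4, with 11305 units on the senecionine array and 23820 on the control array. Vil1, Lct and Rbp2 were detected in the senecionine pool alone. With detection on 1 array sufficing, 3 of 6 intestinal markers were at least 2-fold higher and 1 lower (median log2 ratio 0.95, against -0.66 over the 3). The added genes enter only through the array where they are high, so this rise is built into the setting. Over all genes at that setting the median was 0.10 and 14.7% were at least 2-fold lower. Of 4 measured bile duct markers 2 were at least 2-fold higher, Epcam (2.54) and Krt19 (1.66), beside 11.2% of all measured genes. The summed scaled signals of the 4 were 5.16 on the senecionine array and 2.30 on the control array. Spp1 was detected in the senecionine pool alone and Cftr was not well above background on either.

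**Figure D4:**
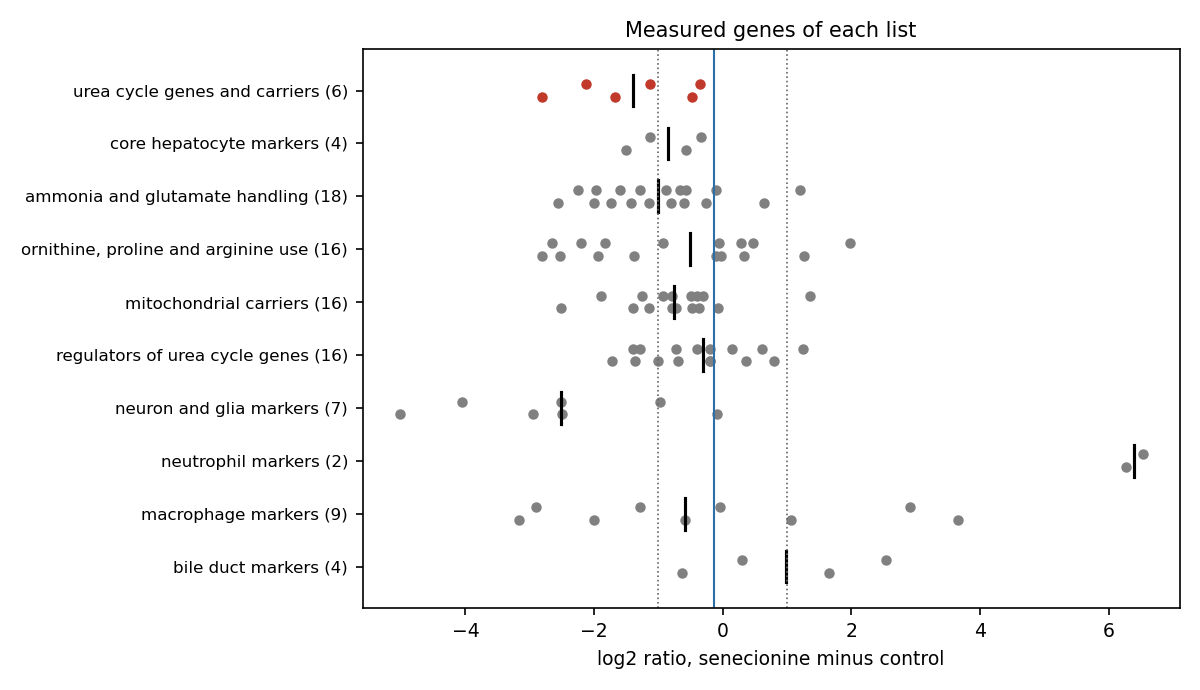
Log2 ratio (senecionine minus control) of every measured gene of each list, with the number of genes in brackets. Red points are the urea cycle members on unflagged spots, black bars are list medians, the blue line is the median of all measured genes (-0.14) and dotted lines mark 2-fold. The members' median of -1.40 lies left of the medians of the hepatocyte, ammonia, arginine, carrier and regulator lists.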

How the data were processed

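Liver RNA of a senecionine pool and a control pool was measured on 1 array each, from 3 animals per pool, and the groups were taken from the sample titles. The authors obtained spot intensity values from Agilent Feature Extraction 10.7.3.1, which subtracted background and removed trends within the array, per the file headers and the submitters' processing notes. Both arrays share 1 scan, per the file headers, and were not scaled to each other. The deposited log2 values of the authors' series table cover 7404 probes. Its smallest absolute log2 difference is 1.00, its column medians are 6.10 for senecionine and 6.03 for control, and all 7355 of its probes compared here differed in the same direction as the scanner signals.

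From the scanner files, the processed signal was put on the log2 scale and each array's 75th percentile (all non-control spots) was subtracted. Control spots and spots flagged as non-uniform or population outliers were left out (497 on the senecionine array and 522 on the control array), none was saturated, and 40516 probes remained. Accessions without version were matched to the RefSeq gene table of GRCr8, naming 17241 probes. The array design rests on an older build, and coordinates are those of the promoter sequences only. The brightest probe well above background on both arrays represented a gene. Genes were counted at a log2 ratio of at least 1 in either direction. For a gene detected on the senecionine array alone, the signal there was set against a floor on the control array. This floor was the dim probe's own signal or the lowest detected signal, whichever was higher. Precision is limited by the number of arrays.

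The members and lists were chosen with earlier results of these data known. All 9 members, Arg2, Slc25a12 and Glul, and up to 4 genes per list with the largest absolute ratio were to be named; others were named after their values were seen. Some genes of the lists are not reported here and were left out of the lists' counts, medians and sums. No protein sequences were used here. Counting was run on simulated data, with an outcome not given here. Both simulated arrays were drawn from the control array with its detection, so the run cannot speak to unequal detection or to the spread between pools. Alternatives were median scaling, quantile normalization, cyclic loess, normexp (offset 50, on median spot signals), flagged spots kept, detection on 1 array, other probe rules, other thresholds and the authors' values. Normalization used limma 3.58.1 in R 4.3.3, and the other steps Python 3.11.15 with pandas 2.3.3, numpy 2.4.6 and matplotlib 3.10.9.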

Additional observations from a re-analysis of the deposited data

How the results depend on the processing

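No paired analysis was possible because each group is 1 array of pooled tissue, and no replicate could be left out for the same reason. Every member kept a ratio below 0 under each alternative run. Of the 8 members, only Cps1 and Arg1 crossed 2-fold. The count of members at least 2-fold lower was 3 of 6 with quantile normalization, cyclic loess or normexp, and 4 of 6 under the other settings at 2-fold that used the scanner files with flagged spots left out. With flagged spots kept it was 6 of 8, and 4 of 8 together with quantile normalization or cyclic loess, pairs of settings chosen after seeing the data. At 4-fold it was 2 of 6, beside 4.63% of all measured genes lower by that much. A change is given below where a ratio moved by at least its spot error or a count by over 1.5 times, and the cause was not tested. Hepatocyte values from the scanner files with flagged spots left out rest on 4 markers. In the main setting 2 of these were lower and their median was -0.85.

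Quantile normalization gave -2.44 for Ass1, -0.92 for Cps1 and -0.89 for Arg1, and a median of -0.41 with 1 lower for hepatocyte markers and 3 lower regulators. Cyclic loess gave -2.50 for Ass1, -0.91 for Cps1 and -0.99 for Arg1, a median of -0.33 with 1 lower for hepatocyte markers, a carrier median of -0.54 and 3 lower regulators. Normexp gave -1.30 for Nags, -1.90 for Otc and -2.59 for Gls2, a members' median of -1.13, and medians of -0.66 for the ammonia list, -0.49 for carriers and -0.30 for the ornithine list. It left 1 hepatocyte marker and 3 carriers lower, and 0 carriers and 0 regulators higher. The authors' deposited table gave -2.34 for Ass1 and -1.91 for Otc. It lists 1 hepatocyte marker, which was higher, and 6 regulators, of which 3 were lower and 3 higher. Of its 13 genes of the ornithine list, 7 were higher.

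Keeping flagged spots raised the measured hepatocyte markers from 4 to 10 and the lower ones from 2 to 5. Averaging probes left 0 carriers and 0 regulators higher. The probe with the smallest ratio gave an ornithine median of -0.14 and 0 carriers and 0 regulators higher. Detection on 1 array gave 6 higher genes and a median of -0.046 for the ornithine list. The genes it added there were detected in the senecionine pool alone, so a rise is built into that setting. At 4-fold, 0 hepatocyte markers, 2 ammonia genes, 4 ornithine genes, 1 carrier and 0 regulators were lower, and 0 of each of the last 4 lists higher. At 1.5-fold 9 carriers were lower, 2 ammonia genes higher and 3 regulators higher. Over all measured genes 31.1% were at least 1.5-fold lower. The spot error of about 0.20 and the lack of replicates limit each comparison.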
